A study of Mus musculus with 8 samples.

Results

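Haematopoietic stem cells (HSCs) sustain blood formation for life and are isolated from mouse marrow by proteins on their surface and by a few reporter genes. Described here are 8 such genes among 55401 gene records, taken by symbol: Slamf1, Cd48, Ly6a, Procr, Cd34, Fgd5, Esam and Cd27. All 8 passed the filter on low counts. RNA came from HSCs sorted by flow cytometry from bone marrow of C57BL/6 mice 8 weeks old, in 4 control and 4 Nynrin CKO libraries. The design text gives about 3000 sorted cells and also 500 cells for the library method, so the input per library is uncertain. Nynrin CKO mice were Nynrinfl/fl with Tie2-Cre, so the floxed gene is deleted wherever the Tie2 (Tek) promoter is active, which takes in endothelium as well as blood cells. Controls were Nynrinfl/fl without Cre and are labelled wild type. Both groups carry the floxed alleles and Cre is present only in Nynrin CKO, so effects of Cre and of Nynrin loss cannot be told apart. The labels name neither the antigens of the sort gate nor a separate mouse for each library. The p-values thus measure spread among 8 libraries, part of which may be technical.

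In mouse marrow, stem and progenitor cells lack lineage antigens and carry Kit and Sca-1, the product of Ly6a. Among them CD150 (Slamf1) marks HSCs, while CD48 is carried by most multipotent and committed progenitors and is absent from long-term HSCs. CD34 is low on adult long-term HSCs and present on progenitors. Procr, Esam and Fgd5 are enriched in HSCs and are also expressed by endothelium, and CD27 is carried by HSCs, progenitors and lymphocytes. Ratios such as Cd48 to Slamf1 are therefore read as a guide to what a sorted fraction holds. The measurements here are of mRNA, not of the surface proteins, and in bulk RNA fewer cells of a type and less RNA per cell cannot be told apart.

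Total counts ran from 36942835 to 56437299 per library, and the 8 genes had from 779 to 70989 counts in a library. The libraries also formed 2 sets that cut across the groups. Levels are given as CPM, counts scaled to library size. On 2001 receptor genes of the olfactory and vomeronasal families, which are not known to act in blood, control 4 and Nynrin CKO 3 and 4 summed to 177 to 216 CPM and the other 5 libraries to 873 to 1449 CPM. These are called below the sets with few and with more receptor reads. Nynrin CKO 1 and 2 were alike (biological coefficient of variation 0.245), and so were 3 and 4 (0.246), whereas the value was 0.841 to 0.857 across these pairs and 0.327 to 0.857 among controls. Controls 3 and 4 had high Xist counts (177719 and 224087) and the other 6 libraries low ones (245 to 471) of this transcript of the inactive X chromosome. Nynrin itself ranged from 30.1 to 47.5 CPM among controls and from 8.22 to 12.7 CPM among Nynrin CKO libraries, with no overlap (log2 fold change -1.85, edgeR adjusted p = 0.0345, and 0.024 to 0.123 with single libraries left out). Kit, the stem cell factor receptor of the stem and progenitor gate, was at 1351 to 1632 CPM in controls, at 1329 and 1305 CPM in Nynrin CKO 1 and 2, and at 2331 and 2361 CPM in 3 and 4 (log2 fold change 0.28, edgeR adjusted p = 0.586).

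Slamf1 and Cd48 are neighbours in the SLAM receptor cluster of chromosome 1, on the same strand, with 61.9 kb between the end of Cd48 and the start of Slamf1. Cd48 (ENSMUSG00000015355) lies at 171682009 to 171705258 and Slamf1 (ENSMUSG00000015316) at 171767127 to 171801184 in mm10. Their promoters are shown because the ratio of these genes has the largest group difference of the 5 ratios described below. Each is the 250 bases before the RefSeq gene start in GRCm38.p6, plus strand, at chr1:171681742-171681991 for Cd48 and chr1:171766882-171767131 for Slamf1, with matches to 4 short motifs of blood cell factors in capitals.
Cd48: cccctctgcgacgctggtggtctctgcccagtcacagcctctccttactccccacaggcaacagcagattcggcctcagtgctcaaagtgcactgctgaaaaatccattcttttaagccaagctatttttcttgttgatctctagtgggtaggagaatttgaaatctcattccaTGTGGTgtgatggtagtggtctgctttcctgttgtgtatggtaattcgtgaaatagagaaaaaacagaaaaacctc
Slamf1: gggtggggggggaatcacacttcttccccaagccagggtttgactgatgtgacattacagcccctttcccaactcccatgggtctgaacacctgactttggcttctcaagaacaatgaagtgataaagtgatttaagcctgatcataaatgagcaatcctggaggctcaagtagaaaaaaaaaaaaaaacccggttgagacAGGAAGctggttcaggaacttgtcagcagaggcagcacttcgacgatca
Both strands were searched. The motif of ETS factors was spelled AGGAAG, that of RUNX factors was spelled TGTGGT, that of GATA factors was spelled AGATAA, and the E-box was spelled CAGCTG. No match overlapped another. Cd48 held 1 match, TGTGGT from base 175 of the window, and Slamf1 held 1, AGGAAG from base 202. Of 32851 promoter windows of the same length, 14% held TGTGGT and 29.5% AGGAAG on either strand. A match of these letters is a description and not a binding site.

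None of the 8 genes passed the test between Nynrin CKO and control (edgeR quasi-likelihood test over all genes, adjusted p threshold 0.05), where 2.80% of 27573 tested genes did. The test called 2.22% of tested genes higher and 0.588% lower. At an unadjusted p under 0.05 there were 5 of the 8, beside 18.9% of tested genes: Cd48, Cd34 and Cd27 were higher (13.2% of tested genes) and Slamf1 and Fgd5 lower (5.78%). The 5 became 3 with RLE factors, with total counts, with the length and GC trend removed, without control 1 and without control 2. They became 2 with similar Nynrin CKO libraries summed. The count was 6 with DESeq2, with replicate number as a block and without the controls with high Xist, and 4 or 5 in the other alternatives. Fgd5 alone among the 8 had groups that did not overlap, all its Nynrin CKO libraries being lower. Of tested genes 14.3% had groups apart, 9.52% higher and 4.83% lower. With DESeq2, Cd48 was called higher and Fgd5 lower, and limma-voom called none of the 8. The median log2 fold change was 0.26 over the 8 genes and -0.09 over all tested genes. That last median moved to -0.14 with RLE factors, -0.20 with upper-quartile factors, and -0.34 if scaled by totals. Over all genes 611 were called higher and 162 lower, which became 13 and 22 with RLE factors, 225 and 251 with upper-quartile factors, and 59 and 318 if scaled by totals.

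Cd48, the GPI-anchored SLAM family protein of progenitors, had the largest log2 fold change of the 8. It was at 24.5, 18.7, 22.6 and 34.6 CPM in controls 1 to 4 and at 37.1, 31.4, 196 and 185 CPM in Nynrin CKO 1 to 4. Nynrin CKO 3 and 4 stood far above all other libraries, whereas 1 and 2 lay at the upper end of the controls or just above it. Means were 25.1 ± 6.77 and 112 ± 90.3 CPM (SD, n = 4 per group), or 4.48 times as much. On the log2 scale the fitted change was 2.16 (standard error 0.59, 95% interval 0.83 to 3.50; edgeR adjusted p = 0.0806; two-sided exact permutation p = 0.0571). Where receptor reads were more it was 0.64, and where they were few, with 1 control, it was 2.46. With the library set as a term it was 1.25, and with limma-voom 1.31. Nynrin CKO 3 and 4 averaged 5.56 times the level of 1 and 2.

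Slamf1, which encodes CD150, was at 48.7, 45.3, 25.7 and 32.6 CPM in controls 1 to 4 and at 29.8, 32.2, 24.4 and 22.5 CPM in Nynrin CKO 1 to 4. Controls 1 and 2 were the highest, Nynrin CKO 3 and 4 the lowest, and control 3 lay inside the Nynrin CKO range. Means were 38.1 ± 10.8 and 27.2 ± 4.51 CPM (SD, n = 4 per group), and the fitted log2 change was -0.48 (standard error 0.21; edgeR adjusted p = 0.259; exact permutation p = 0.114). Among libraries with more receptor reads it was -0.36, and among those with few -0.47.

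**Figure D1:**
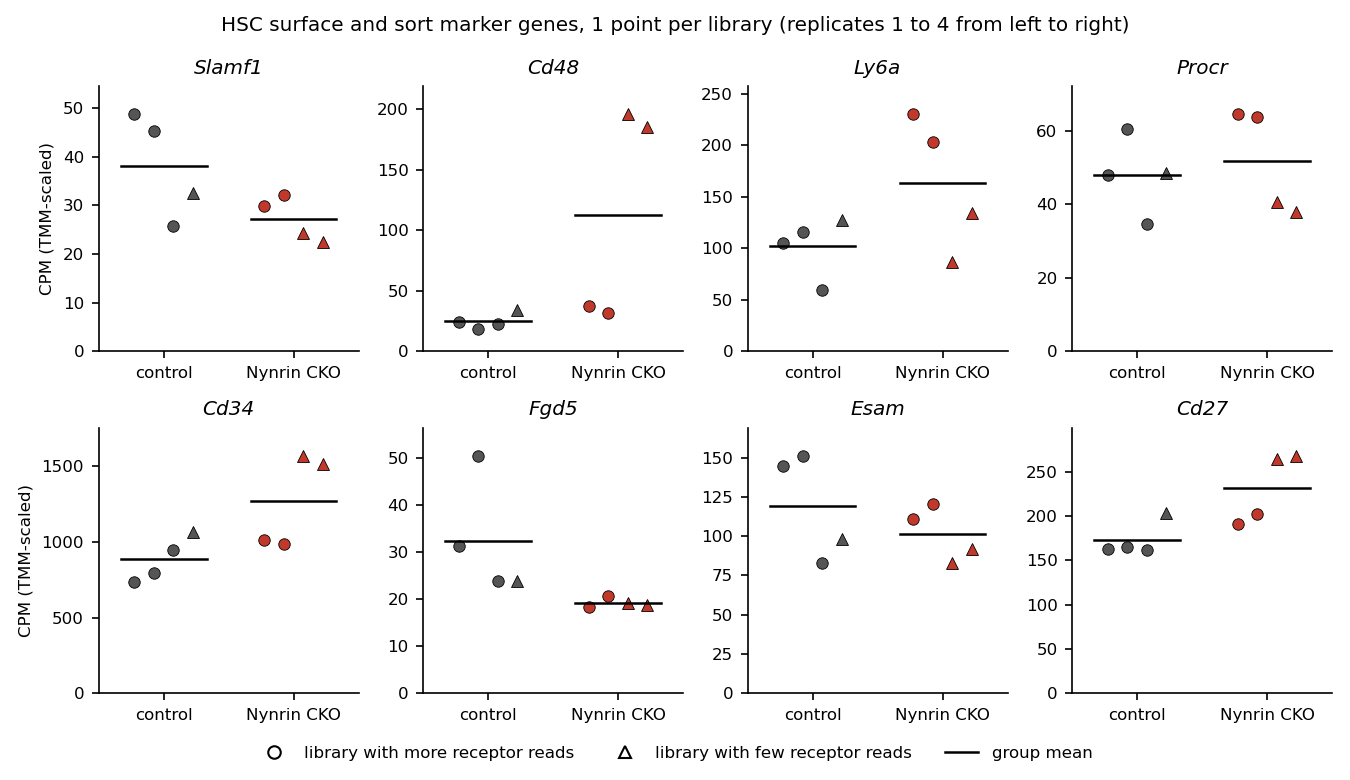
CPM of the 8 genes (vertical axes, linear and from 0, each panel with its own scale) in controls and Nynrin CKO, with 1 point per library, replicates 1 to 4 from left to right, circles for libraries with more receptor reads, triangles for those with few, and a line at each group mean. Cd48 reaches 196 and 185 CPM in Nynrin CKO 3 and 4 alone, Ly6a is highest in 1 and 2, and Fgd5 is the 1 gene whose groups do not overlap.

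The count ratio of Cd48 to Slamf1 within a library does not depend on scaling. It was 0.503, 0.412, 0.881 and 1.06 in controls 1 to 4 and 1.25, 0.976, 8.02 and 8.22 in Nynrin CKO 1 to 4. The first 2 Nynrin CKO libraries lay beside control 4, and the last 2 stood apart. Log2 ratios averaged -0.59 ± 0.65 for controls and 1.58 ± 1.67 for Nynrin CKO (SD, n = 4 per group), and the groups overlapped. The Cd34 to Slamf1 ratio was 15.0 and 17.5 in controls 1 and 2, 36.9 and 32.7 in controls 3 and 4, 33.9 and 30.6 in Nynrin CKO 1 and 2, and 64.0 and 67.3 in 3 and 4. Controls 3 and 4, those with high Xist, thus lay with Nynrin CKO 1 and 2 in this ratio. The Cd27 to Slamf1 ratio had the same arrangement, with 3.34 and 3.64, 6.30 and 6.24, 6.43 and 6.30, and 10.8 and 11.9 in that order.

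Against Procr in place of Slamf1 the separation was confined to Nynrin CKO 3 and 4 among the 8 libraries. The Cd48 to Procr ratio was 0.308 to 0.711 in controls, 0.576 and 0.493 in Nynrin CKO 1 and 2, and 4.82 and 4.90 in 3 and 4. The Cd34 to Procr ratio was 13.1 to 27.4 in controls, 15.7 and 15.4 in Nynrin CKO 1 and 2, and 38.5 and 40.1 in 3 and 4. Nynrin CKO 1 and 2 lay inside the control range in both. The difference of log2 means was 1.63 for Cd48 to Procr and 0.41 for Cd34 to Procr, and in the set with more receptor reads alone it was 0.18 and -0.18. No p is given for these ratios, because their genes were chosen with results known.

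**Figure D2:**
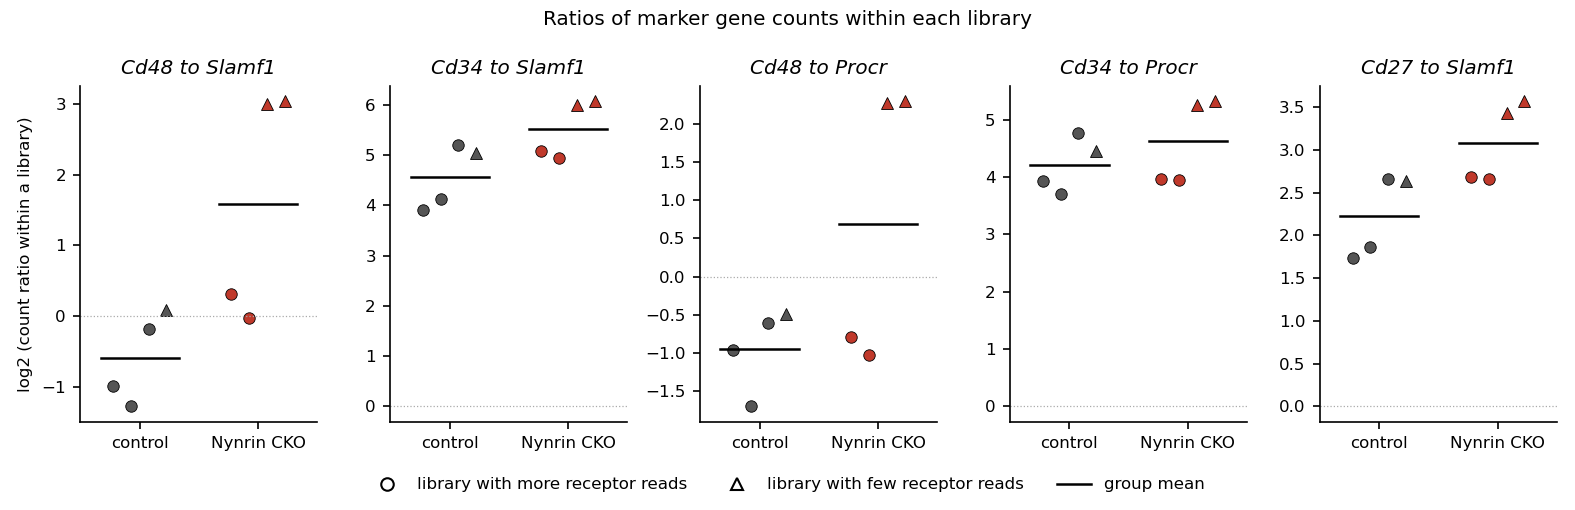
Log2 of the ratio of raw counts of the named pairs of genes within each library (vertical axes; dotted line at equal counts), with circles for libraries with more receptor reads, triangles for those with few, and a line at each group mean. In all 5 ratios Nynrin CKO 3 and 4 are the highest libraries, with 8.02 and 8.22 Cd48 counts per Slamf1 count.

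Cd34 and Cd27 were also highest in Nynrin CKO 3 and 4. Cd34 (chromosome 1, 194938819 to 194961279) was at 732, 793, 948 and 1066 CPM in controls 1 to 4 and at 1012, 984, 1564 and 1515 CPM in Nynrin CKO 1 to 4. Control 4 lay above Nynrin CKO 1 and 2. Its fitted log2 change was 0.52 (standard error 0.20, edgeR adjusted p = 0.196, exact permutation p = 0.114), or 0.28 where receptor reads were more and 0.53 where they were few, and 0.22 if scaled by total counts. Cd27 (chromosome 6, 125232622 to 125237010), a receptor of the TNF receptor superfamily, was at 163, 165, 162 and 203 CPM in controls 1 to 4 and at 192, 203, 265 and 267 CPM in Nynrin CKO 1 to 4. Control 4 overlapped Nynrin CKO 1 and 2. Its fitted log2 change was 0.42 (standard error 0.15, edgeR adjusted p = 0.15, exact permutation p = 0.0857), or 0.27 and 0.39 inside the same sets. It was 0.13 if scaled by total counts and 0.17 with the length and GC trend removed. The Cd27 record shares part of its span with Vamp1 on the opposite strand, which held 68.5% as many counts; their annotated exons do not overlap, and no source used here states whether counting used strand.

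Ly6a showed another arrangement. Ly6a (chromosome 15, 74994877 to 74998031) encodes Sca-1, the GPI-anchored antigen of the stem and progenitor gate, and is a known interferon-responsive gene. It was at 106, 116, 59.7 and 128 CPM in controls 1 to 4 and at 229.8, 203, 87.1 and 135 CPM in Nynrin CKO 1 to 4. Nynrin CKO 1 and 2 were above every control and averaged 1.95 times the level of 3 and 4, which lay within or just above the control range. The fitted log2 change was 0.68 (standard error 0.32, edgeR adjusted p = 0.294, exact permutation p = 0.2). It was 0.41 without control 3 and 0.36 with the length and GC trend removed. It was 1.21 where receptor reads were more and -0.20 where they were few, and whether these differ was not tested. In the 5 libraries with more receptor reads alone Ly6a passed at 1.2 (edgeR adjusted p = 0.0442), a fit chosen after seeing the data. That fit counts the similar Nynrin CKO 1 and 2 as separate replicates.

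Procr, the protein C receptor EPCR, followed Ly6a in part. Procr (chromosome 2, 155751117 to 155755471) was at 47.9, 60.6, 34.6 and 48.6 CPM in controls 1 to 4 and at 64.5, 63.7, 40.7 and 37.8 CPM in Nynrin CKO 1 to 4. Nynrin CKO 1 and 2 were above every control, and 3 and 4 lay inside the control range. The fitted log2 change was 0.11 (standard error 0.22, 95% interval -0.39 to 0.61, edgeR adjusted p = 0.861). Its sign changed with total counts, with removal of a length and GC trend, without control 3, without Nynrin CKO 1 and without the controls with high Xist.

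Fgd5, an exchange factor for the GTPase Cdc42 whose locus is used for HSC reporter mice, was lower in all 4 Nynrin CKO libraries. Fgd5 (chromosome 6, 91978878 to 92076004) was at 31.2, 50.3, 23.9 and 23.9 CPM in controls 1 to 4 and at 18.4, 20.8, 19.2 and 18.7 CPM in Nynrin CKO 1 to 4. The Nynrin CKO libraries lay within a narrow range, and control 2 stood above all others. Means were 32.3 ± 12.5 and 19.3 ± 1.04 CPM (SD, n = 4 per group), the second being 59.6% of the first. The fitted log2 change was -0.75 (standard error 0.23, 95% interval -1.26 to -0.23, edgeR adjusted p = 0.108, exact permutation p = 0.0286, the smallest that 4 against 4 libraries can give). It was -0.84 where receptor reads were more, -0.33 where they were few, -0.46 with the length and GC trend removed, -0.45 without control 2 and -1.04 without the controls with high Xist (edgeR adjusted p = 0.296, 0.205 and 0.107 for the last 3). Fgd5 passed with DESeq2 (-0.79, adjusted p = 0.0122), and over all 21 alternatives its adjusted p ran from 0.0122 to 0.478.

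Esam, an adhesion protein of the immunoglobulin superfamily, overlapped between groups. Esam (chromosome 9, 37528078 to 37538319) was at 144, 151, 82.8 and 98.1 CPM in controls 1 to 4 and at 111, 121, 83.1 and 92.0 CPM in Nynrin CKO 1 to 4. Controls 1 and 2 were highest and control 3 lowest. The fitted log2 change was -0.23 (95% interval -0.70 to 0.24, edgeR adjusted p = 0.654). It was -0.12 without control 1, -0.089 without control 2, -0.43 without control 3 and -0.13 without Nynrin CKO 3, and ran from -0.51 to -0.089 over all 21 alternatives. Slamf1, Fgd5 and Esam all had lower CPM in controls 3 and 4 than in controls 1 and 2. Without controls 3 and 4 the log2 fold changes were -0.76 for Slamf1 (adjusted p = 0.113) and -0.51 for Esam (adjusted p = 0.192), an alternative chosen after seeing the data. All Nynrin CKO libraries have low Xist, and the part of that difference in these values was not tested.

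**Figure D3:**
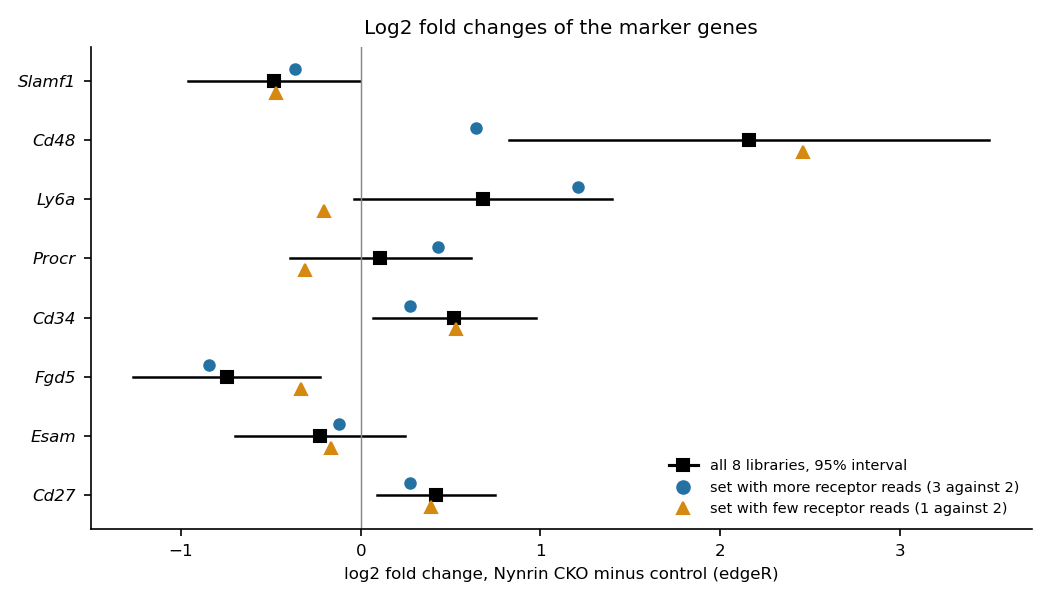
Log2 fold change of each gene, Nynrin CKO minus control (horizontal axis), from all 8 libraries (squares, bars for the 95% interval), within the set with more receptor reads (circles, 3 controls against 2) and within the set with few (triangles, 1 control against 2). Cd48 runs from 0.64 to 2.46 between the sets, and Ly6a and Procr lie on opposite sides of 0 in them.

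Levels were compared between the genes as CPM per kilobase of the longest protein-coding transcript. In controls the order of means was Cd34 (346 ± 59.2), Cd27 (111 ± 12.8), Ly6a (107 ± 31.1), Esam (63.8 ± 18.0), Procr (30.0 ± 6.65), Cd48 (21.2 ± 5.71), Slamf1 (14.1 ± 4.0) and Fgd5 (5.31 ± 2.05) CPM per kilobase (SD, n = 4). Cd27 and Ly6a, Ly6a and Esam, Procr and Cd48, and Cd48 and Slamf1 overlapped in range, so these neighbours are not ordered beyond their spread. In Nynrin CKO the order was Cd34, Ly6a, Cd27, Cd48, Esam, Procr, Slamf1 and Fgd5. By mean, Cd48 stood above Esam there at 94.8 ± 76.2 CPM per kilobase, with libraries from 26.5 to 165. In Nynrin CKO 1 and 2 it lay below Esam, at 31.3 and 26.5 against 59.5 and 64.7. Ly6a and Cd27, Cd27 and Cd48, and Cd48 and Esam overlapped in range in Nynrin CKO. Per kilobase, Cd34 was the highest and Fgd5 the lowest of the 8 genes in both groups.

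Likeness to other genes was measured as the root mean square difference of centred log2(CPM + 1) over the 8 libraries, among 9147 genes with a mean of at least 10 CPM. The nearest to Slamf1 were Tie1, an endothelial and HSC receptor (0.076), and Mllt3, a regulator of HSC maintenance (0.084), against a spread of Slamf1 itself of 0.366. The nearest to Cd48 were Tpm4, a tropomyosin (0.175), and Ubash3a (0.188), against a spread of 1.23. Those of Fgd5 were the potassium channel gene Kcnk5 (0.143) and the collagen gene Col4a1 (0.15), and those of Ly6a were Mitd1 (0.232) and Casp4, an inflammatory caspase (0.238), so Ly6a had the least close matches. For Cd34 they were Sephs2 (0.040) and Galk1 (0.064), for Cd27 Nubpl (0.040) and Pex7 (0.045), for Procr Elmod3 (0.113) and Tlk1 (0.117), and for Esam Disp1 (0.093) and Ndrg1 (0.102). These values describe 8 libraries that share group, set and depth.

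The SLAM family relatives of Slamf1 and Cd48 did not pass the test. Of the other 7 SLAM receptors none was called, and 2 had an unadjusted p under 0.05, both higher, beside 13.2% of tested genes. Ly9 ranged from 43.0 to 74.0 CPM among controls and from 74.4 to 91.7 CPM among Nynrin CKO libraries (log2 fold change 0.59, edgeR adjusted p = 0.0953). Cd244a, the receptor for CD48, was at 33.8 to 48.5 CPM in controls, at 44.2 and 46.6 CPM in Nynrin CKO 1 and 2 and at 98.2 and 88.9 CPM in 3 and 4 (0.75, adjusted p = 0.158). Cd244a thus had the arrangement of Cd48 with smaller steps.

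Among 17 neighbours of Ly6a in the Ly6 cluster, 11 were tested and 3 were called, all higher, beside 2.22% of all tested genes in that direction. They were Ly6c1 (1.70, edgeR adjusted p = 0.0442), Ly6c2 (3.64, adjusted p = 0.0496), both antigens of monocytes and other cells, and Ly6d, an antigen of lymphoid progenitors (3.36, adjusted p = 0.0491). Ly6c2 was at 1.01 to 3.86 CPM in controls, at 7.02 and 8.59 CPM in Nynrin CKO 1 and 2 and at 74.2 and 47.2 CPM in 3 and 4. Calls for all 3 were lost under RLE, upper-quartile and total-count scaling. Leaving out single libraries, Ly6c1 passed once in 8 times, without control 4, and Ly6c2 and Ly6d never did (edgeR adjusted p 0.0559 to 0.211 for Ly6c2). Ly6c1 and Ly6c2 are near-identical copies, so their split is uncertain. Ly6e, a relative chosen after its values were seen, was at 234 to 422 CPM in controls, at 984 and 937 CPM in Nynrin CKO 1 and 2 and at 363 and 426 CPM in 3 and 4 (1.06, adjusted p = 0.142), as in the case of Ly6a.

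Of 26 other surface genes used to sort HSCs, 2 rose, beside 2.22% of tested genes, and none fell (median log2 fold change -0.05). These were Tek, the angiopoietin receptor whose promoter drives Cre here (2.10, edgeR adjusted p = 0.00620), and Cd274, the checkpoint ligand PD-L1 (0.79, adjusted p = 0.0438). Cd274 ranged from 60.2 to 103 CPM among controls and from 141 to 162 CPM among Nynrin CKO libraries, with no overlap. Its call was lost under RLE and total-count scaling and on leaving out any library other than control 4 (edgeR adjusted p up to 0.133), whereas Tek passed in all 8 fits with a library left out. Over all 21 alternatives Tek passed in 18, with adjusted p up to 0.107. Of 24 other genes of HSC identity and HSC reporter strains, 1 fell and none rose (median -0.16), beside 0.588% of tested genes called lower. This was Prdm16, a transcription factor that maintains HSCs, at 64.9, 78.6, 55.7 and 61.1 CPM in controls 1 to 4 and 33.8, 36.3, 31.6 and 33.2 CPM in Nynrin CKO 1 to 4 (-0.95, adjusted p = 0.0345). Like Fgd5, Prdm16 was lower in both sets of libraries, by 0.92 on the log2 scale within each; its call held without control 3 or control 4 and was lost without any 1 of the other 6 libraries (edgeR adjusted p up to 0.123). Mecom, another HSC transcription factor, chosen after its values were seen, was at 91.4 to 107 CPM in controls, at 69.7 and 66.7 CPM in Nynrin CKO 1 and 2 and at 34.3 and 31.1 CPM in 3 and 4 (-0.98, adjusted p = 0.0746). Apoe of the same list, chosen likewise, went the other way. It ranged from 36.7 to 141 CPM among controls and from 180 to 384 CPM among Nynrin CKO libraries (1.37, edgeR adjusted p = 0.0968). Log2 changes in this list were below 0 for 15 genes and above 0 for 9.

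Genes of multipotent and early committed progenitors were highest, in sum, in the libraries where Cd48 was highest. Log2 changes were above 0 for all 26 (median 1.3), beside 12281 of 27573 tested genes, and 3 were called higher, beside 2.22% of tested genes: Plac8 (1.86, edgeR adjusted p = 0.0345), the granule protease Ctsg (5.28, adjusted p = 0.0478) and Ms4a3 (3.83, adjusted p = 0.0457). Cd24a (0.0049) and Flt3 (0.057), both chosen after their values were seen, were near 0. Flt3 was at -0.12 where receptor reads were more and at -0.07 where they were few. The list median was 0.94 if scaled by total counts. At an unadjusted p under 0.05 there were 18 of 26 higher, beside 13.2% of all tested genes. Their summed level was 2207 to 2757 CPM among controls, 2830 and 2876 CPM in Nynrin CKO 1 and 2, and 9421 and 9650 CPM in 3 and 4. Plac8 ranged from 93.8 to 164 CPM among controls and from 333 to 609.96 CPM among Nynrin CKO libraries. Mpo, the myeloperoxidase of granulocyte and monocyte precursors, chosen after its values were seen, was at 60.7 to 100.6 CPM among controls, 164 and 159 CPM in Nynrin CKO 1 and 2, and 2829 and 2824 CPM in 3 and 4 (4.23, adjusted p = 0.0520). For the list the median was 0.22 where receptor reads were more and 1.60 where they were few, with 1 control. Over all tested genes these medians were -0.04 and 0.06. Where receptor reads were few, the lineage, endothelial and stromal lists described below had medians of 1.35, 1.36 and 0.95. The HSC identity genes had -0.35 there and the other HSC surface genes -0.08. The 3 calls were lost with RLE factors. With single libraries left out, Plac8 passed only without control 4, and Ctsg and Ms4a3 in none of 8 fits (edgeR adjusted p 0.0545 to 0.203 for both). Whether cells of these kinds account for the Cd48 level was not tested.

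**Figure D4:**
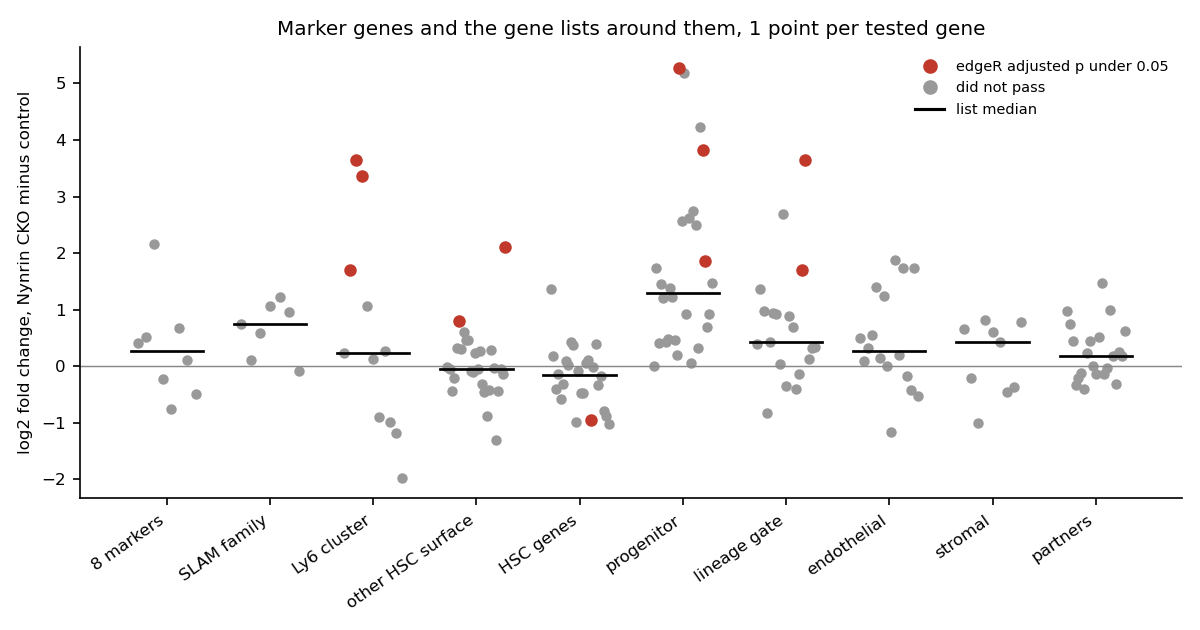
Log2 fold change, Nynrin CKO minus control (vertical axis), of each tested gene of the 8 markers and of the 9 lists around them, red where the edgeR adjusted p was under 0.05, with a line at each list median. The progenitor genes lie above 0 with a median of 1.3, while the other HSC surface genes centre on -0.05 and the HSC genes on -0.16.

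Markers of mature blood cells were low in sum, while some endothelial genes were not. The 20 genes of antigens usually gated out as mature lineages summed to 34.1 to 58.0 CPM among controls, 67.5 and 67.6 CPM in Nynrin CKO 1 and 2, and 147 to 173 CPM in 3 and 4. None was without counts in all libraries, and 9 averaged under 1 CPM. Ly6c1 and Ly6c2 were the 2 called of 19 tested (median 0.42), both higher, beside 2.22% of all tested genes. Both calls were lost under RLE, upper-quartile and total-count scaling, as given above. The 16 endothelial genes summed to 294 to 374 CPM among controls, 331 to 349 CPM in Nynrin CKO 1 and 2, and 499 to 504 CPM in 3 and 4. None was called, and the 2 with the smallest p were Mmrn2 (1.88, edgeR adjusted p = 0.177) and Plvap (1.74, adjusted p = 0.230). Tie1, Egfl7 and Pecam1, which blood stem cells can also express, averaged 108, 77.3 and 67.7 CPM in controls and made up most of the endothelial sum. Egfl7, Pecam1, Cdh5 and Stab2 were chosen after their values were seen. Cdh5, an endothelial cadherin, averaged 1.02 ± 0.57 CPM and 1.08 ± 0.40 CPM in control and Nynrin CKO libraries (SD, n = 4 per group). Stab2 was at 2.97 to 19.6 CPM in controls and at 6.76 and 8.21 CPM in Nynrin CKO 1 and 2. In 3 and 4 Stab2 was at 83.8 and 80.2 CPM (1.74, edgeR adjusted p = 0.328). Log2 changes of the 16 were above 0 for 12 and below 0 for 4 (median 0.26), and none of the 16 was without counts. In Nynrin CKO 1 and 2, Procr, Esam and Fgd5 averaged 1.34, 0.973 and 0.606 times their control means. In 3 and 4 they averaged 0.819, 0.736 and 0.587 times those means. The part of endothelial cells in these values was not tested. The 10 stromal genes summed to 56.3 to 88.0 CPM among controls and 95.9 to 121 CPM among Nynrin CKO libraries, with none called and Col1a2 (-0.99, adjusted p = 0.0744) and Pdgfrb (0.78, adjusted p = 0.272) leading.

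Ligands, co-receptors and adaptors of the 8 proteins gave no call among 21 tested of 23, with 7 higher and 2 lower at an unadjusted p under 0.05 (median 0.19), beside 13.2% and 5.78% of tested genes. Cdc42, the GTPase that FGD5 activates, ranged from 391 to 468 CPM among controls and from 525 to 632 CPM among Nynrin CKO libraries (0.44, edgeR adjusted p = 0.0787). Cd70, the ligand of CD27 and also chosen after its values were seen, averaged 0.16 CPM in controls and did not pass the filter on low counts.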

How the data were processed

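Per the file headers, the deposited values are whole-number counts for 8 libraries, 1 column each, not normalized. The table holds 55401 Ensembl mouse genes on build mm10, which the submitters' processing notes name; the aligner, counter and strand setting are not given in the sources. Per the labels' protocols, RNA was prepared with Trizol. The main test used edgeR 4.0.16 (R 4.3.3): filterByExpr kept 27573 genes, TMM factors scaled the libraries, and a robust quasi-likelihood F-test compared the groups without covariates, with Benjamini-Hochberg adjustment over all tested genes at 0.05. CPM use the same factors. For single genes a two-sided exact permutation test on log2(CPM + 1) enumerated 70 assignments. DESeq2 1.42.0, limma 3.58.1 (voom), other scalings, filters and designs, and removal of each library were alternatives. Libraries were split at 300 CPM of receptor reads, and high Xist means over 100 CPM. Within-set values come from 1 fit with a coefficient for each combination of group and set; control 4, the lone control with few receptor reads, is taken to vary as other libraries do. Total counts were 36942835 to 56437299, and each of the 8 genes had at least 779 counts in every library. The labels give 5 ng of cDNA per library, and how many separate molecules the counts stand for is not known.

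The 8 genes, the 9 lists around them and the tests were chosen with earlier results of these data known. By rule, the 8 genes, Nynrin and Kit were named, as were up to 4 called genes per list with the smallest p, or the 2 with the smallest p where none was called, and the 2 nearest genes of each of the 8. Genes named outside this rule are marked as chosen after their values were seen. Transcript lengths are from GENCODE M21 and promoters from RefSeq, which had 6 of the 8 genes. One gene that the rule would name is not reported here.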

Additional observations from a re-analysis of the deposited data

Results flagged for a closer look

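Cd27 in control 4, at 203 CPM, lay far from the other 3 controls, which were at 162 to 165 CPM, by Dixon's test. It was the 1 group flagged of 16 tested, 8 genes in 2 groups of 4, and chance flags about 1 in 20. Control 4 is also the lone control with few receptor reads.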

How the results depend on the processing

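Over 19 planned and 2 added alternatives (the latter chosen after seeing the data), Slamf1, Cd34, Esam and Cd27 kept direction and never passed, though values moved by over 1.5 times in some (Cd27 0.13 to 0.54, Cd34 0.22 to 0.78, Esam -0.51 to -0.089, Slamf1 -0.76 to -0.34). Cd48 passed with DESeq2 (2.13), as did Fgd5 (-0.79), and Ly6a in the 5 libraries with more receptor reads (1.2), so the count of the 8 genes called was 1 higher and 1 lower with DESeq2 and 1 higher in those 5 libraries. Procr reversed to -0.11 with total counts and with the length and GC trend removed and to -0.041 without the controls with high Xist, and ran from -0.093 to 0.25 without single libraries. Kit reversed to -0.032 with total counts and -0.22 in the 5 libraries, and Plvap to -0.048 there. The Cd48 to Procr difference of log2 ratios fell to 0.18 in the 5 libraries. Over all genes, calls higher and lower were 13 and 22 with RLE factors, 225 and 251 with upper-quartile factors, 59 and 318 when scaled by total counts, 33 and 16 without a filter, 1714 and 981 with DESeq2, 1629 and 496 with limma-voom, 1221 and 408 with the library set as a term, 6 and 1 with the trend removed, and 1311 and 857 in the 5 libraries; with a filter at 1 CPM in 4 libraries 475 were lower. edgeR called 0 with similar Nynrin CKO libraries summed (3022 at an unadjusted p under 0.05) and without the controls with high Xist (4930). Without single libraries 1 to 1129 were higher and 0 to 243 lower. The replicate block called 0 and 0 (5144 at an unadjusted p under 0.05) and none of the 8 genes. Control and Nynrin CKO libraries share replicate numbers only: deviations of same-numbered libraries correlated from -0.13 to 0.28 across 16789 genes, and control 3 correlated best with Nynrin CKO 1. The cause of these changes was not tested.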
